A study of Mus musculus with 9 samples.

Results

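Apolipoproteins are the proteins that coat lipoprotein particles, and the transcripts of 10 of their genes were measured in mouse liver: Apoa1, Apoa2, Apoa4, Apoa5, Apob, Apoc1, Apoc3, Apoe, Apoh and Apom. They were chosen by gene symbol from a table of 56748 genes, all 10 were found there once, and all 10 passed the filter on low counts in every comparison. Liver RNA of 9 C57BL/6 mice was sequenced, 1 library a mouse, in 3 groups of 3 libraries. Control mice received water. DSS mice received dextran sulfate sodium, a polymer that injures the colon, at 1.8% (w/v) in the drinking water in 3 cycles, with sterile water by mouth. Indirubin mice received the same DSS and 1 g/kg of indirubin, a red bis-indole of indigo naturalis, by mouth each day. The Control label names water alone, whereas the description of the study could be read as colitis in every group, and the state of the Control colon is taken here from its label. The labels give neither age nor sex, and since they do not state litters or cages, p-values measure the spread between these libraries.

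The liver makes most circulating apolipoproteins. Apob is the structural protein of very-low-density lipoproteins, the particles that carry triglyceride out of hepatocytes, and Apoa1 and Apoa2 are the main proteins of high-density lipoproteins. Apoe and the small C apolipoproteins move between particles and set how fast lipase acts on them and how fast receptors clear them, while in mice Apoa4 is made mostly by the small intestine and by the liver in fasting and steatosis.

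Apoa1, Apoc3, Apoa4 and Apoa5 lie side by side on chromosome 9, within 43340 bases from the start of Apoa1 (position 46139878, GRCm39) to the end of Apoa5 (46183217), with Apoc3 on the minus strand and the others on the plus strand. Apoa4 (46151994 to 46154757) begins 5059 bases after the end of Apoc3. Apoc1 (19423406 to 19426585) and Apoe (19430034 to 19433113) form a pair on the minus strand of chromosome 7, with 3448 bases between them. Apoa2 lies on chromosome 1 (171052623 to 171053948), Apob on chromosome 12 (8027648 to 8066835), Apoh on chromosome 11 (108234180 to 108305222) and Apom on chromosome 17 (35347973 to 35351026). The 250 bases before the transcription start of 3 cluster genes are shown because these neighbours differed in their level across the libraries described here. They are RefSeq sequences of build GRCm38.p6, plus strand, 5′ to 3′, at chr9:46228380-46228629, chr9:46240594-46240843 and chr9:46268358-46268607, and capitals mark any match to 4 letter strings searched on both strands.
Apoa1: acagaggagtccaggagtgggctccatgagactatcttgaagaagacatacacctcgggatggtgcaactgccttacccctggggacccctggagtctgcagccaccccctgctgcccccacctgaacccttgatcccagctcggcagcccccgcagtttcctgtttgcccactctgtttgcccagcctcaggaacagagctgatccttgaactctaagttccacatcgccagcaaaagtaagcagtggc
Apoa4: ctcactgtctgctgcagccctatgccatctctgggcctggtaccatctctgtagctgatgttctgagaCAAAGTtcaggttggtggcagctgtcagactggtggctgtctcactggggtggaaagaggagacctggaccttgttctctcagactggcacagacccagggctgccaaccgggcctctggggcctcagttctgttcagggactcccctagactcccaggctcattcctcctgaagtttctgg
Apoa5: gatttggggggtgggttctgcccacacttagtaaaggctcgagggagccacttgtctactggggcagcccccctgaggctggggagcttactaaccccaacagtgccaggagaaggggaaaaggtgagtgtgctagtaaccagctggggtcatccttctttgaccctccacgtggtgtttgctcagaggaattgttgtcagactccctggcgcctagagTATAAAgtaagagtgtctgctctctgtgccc
The first string was TATAAA, a core promoter element. The second was AGGTCA, one arm of a nuclear receptor site. The others were CAAAGT, part of the site that Hnf4a binds, and TGACGT, the core of the cyclic AMP response element. No printed match overlaps another. Apoa4 held 1 CAAAGT, 182 bases before the start, and Apoa5 held 1 TATAAA, 31 bases before the transcription start at which the window ends and 56 bases before a second start that the RefSeq table gives for this gene. Among 32851 windows of the same length, 12.37% held TATAAA, 14.02% AGGTCA, 12.55% CAAAGT and 6.469% TGACGT, so these matches describe letters and not binding. Of the 10 genes, 8 had an entry in the promoter table, and Apoc1 and Apoc3 had none.

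Library totals ran from 6514863 to 7944684 counts. Mitochondrial transcripts took 71.6% to 91.3% of them, which left 569044 to 2132208 nuclear counts and 26253 to 118484 counts of the 10 genes. The 10 hepatocyte markers were detected in each of the 9 libraries. The library labelled Indirubin-1 stood apart from the others of its group: it held 53 counts of the acute-phase gene Saa1, where Indirubin-2 and Indirubin-3 held 22582 and 29263, the DSS libraries 2287 to 49900 and the Control libraries 12 to 55. Cyp1a1, an aryl hydrocarbon receptor target named here after its values were seen, had 0 counts in Indirubin-1, 262 and 417 in Indirubin-2 and Indirubin-3, and 0 in the other 6 libraries. The label of Indirubin-1 is therefore in doubt, and every mean of 3 indirubin libraries and every statement on overlap rests on that label. Not all genes set it beside Control: Apol9b and Angptl8, given below, stood lower in Indirubin-1 than in every Control library. Results for the 10 genes in the comparisons with Indirubin, and for the gene lists in Indirubin against DSS, are also given without Indirubin-1. The intestinal and pancreatic marker lists are not, and stand library by library. Summed pancreatic acinar markers stood at 1493 and 1506 CPM (counts per 1e6 counts of the TMM-scaled library) in Indirubin-2 and Indirubin-3 and at 0 to 20.2 CPM in the other 7 libraries, with 13 and 14 of the 14 markers detected, Ctrb1 at 1959 and 2817 counts, and 0 to 10 markers detected elsewhere. Prss1, the other defining acinar marker, had 0 counts in Indirubin-2, 9 in Indirubin-3, 5 in DSS-3 and 0 elsewhere. The part of acinar RNA in the values below was not tested.

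The 10 genes together took a smaller part of the nuclear counts in the indirubin livers than in the other livers, with 1 overlapping library. They made up 6.49%, 6.01% and 4.63% of nuclear counts in the Control libraries, 3.70%, 4.70% and 5.56% in the DSS libraries, and 3.74%, 1.91% and 2.06% in the Indirubin libraries. The means were 5.71% ± 0.965, 4.65% ± 0.929 and 2.57% ± 1.02 (SD, n = 3 each). Indirubin-1 lay just above DSS-1, and the other two indirubin libraries lay below the remaining 7. Set against Alb (albumin, the main secreted protein of hepatocytes), the summed counts were 0.816, 0.816 and 0.854 per Alb count in Control, 0.730, 1.19 and 0.926 in DSS, and 0.618, 0.655 and 0.560 in Indirubin. On this measure, which no scaling between libraries can alter, the indirubin libraries lay below all 6 others. For the share of nuclear counts, fewer hepatocytes and less RNA per hepatocyte cannot be told apart in bulk tissue. The ratio to Alb sets these genes against another hepatocyte gene, and the cause of its shift was not tested.

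**Figure D1:**
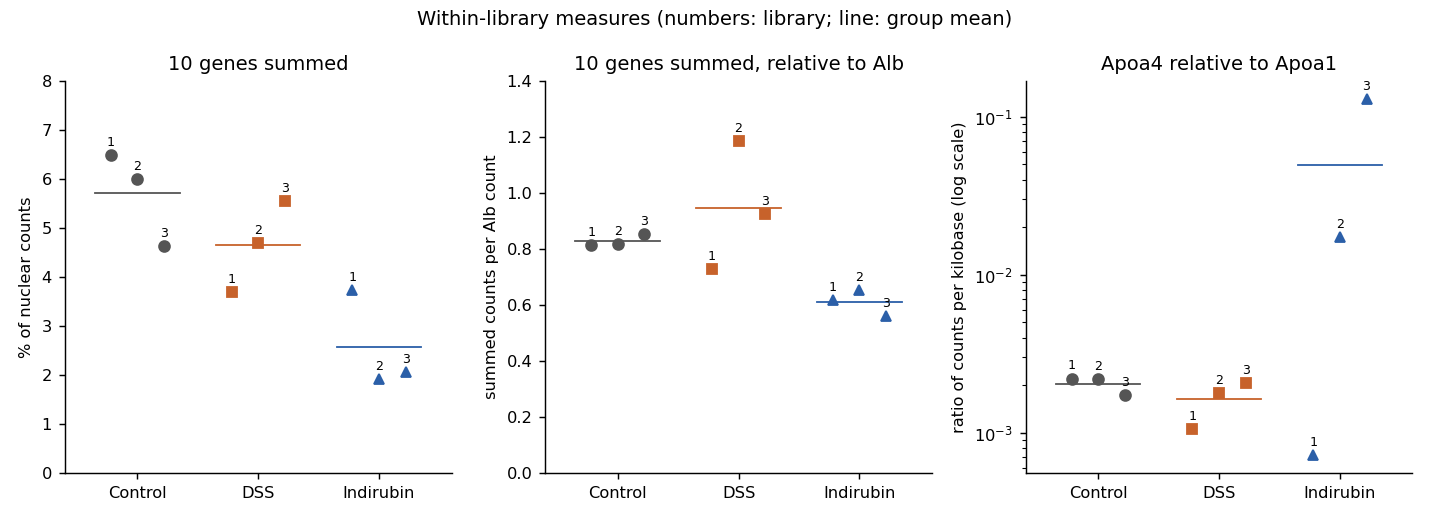
Each point is 1 library, numbered as in its label, and each line a group mean. The left panel gives the summed counts of the 10 genes as a percentage of nuclear counts, the middle panel the same sum per Alb count, and the right panel the ratio of Apoa4 to Apoa1 counts per kilobase on a log axis, where Indirubin-2 (0.0172) and Indirubin-3 (0.130) lie above the other 7 libraries (at most 0.0022).

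The comparison of Indirubin with DSS asks what indirubin did to the liver of mice with colitis. Of the 10 genes, 9 were lower in Indirubin, by log2 fold changes from -0.32 (Apob) to -1.61 (Apoc1), and Apoa4 was higher. The median over the 10 was -0.998, beside 0.15 over all 9117 genes tested, and over the 9 members other than Apoa4 it was -1.005. No member passed an adjusted p of 0.05 (edgeR, quasi-likelihood F test, Benjamini-Hochberg correction), and neither did any other gene (0% of those tested). DESeq2's Wald test called 0 of the 10 and 0.877% of all genes. At an unadjusted p under 0.05 stood 5 of the 10 members, 4 lower and 1 higher, against 7.68% of all genes. The groups did not overlap for 4 members, all 4 lower in Indirubin (Apoa2, Apoc1, Apoc3 and Apom), against 5.9% of all genes apart in that direction and 10.5% apart in the other, in which there were 0 members.

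**Figure D2:**
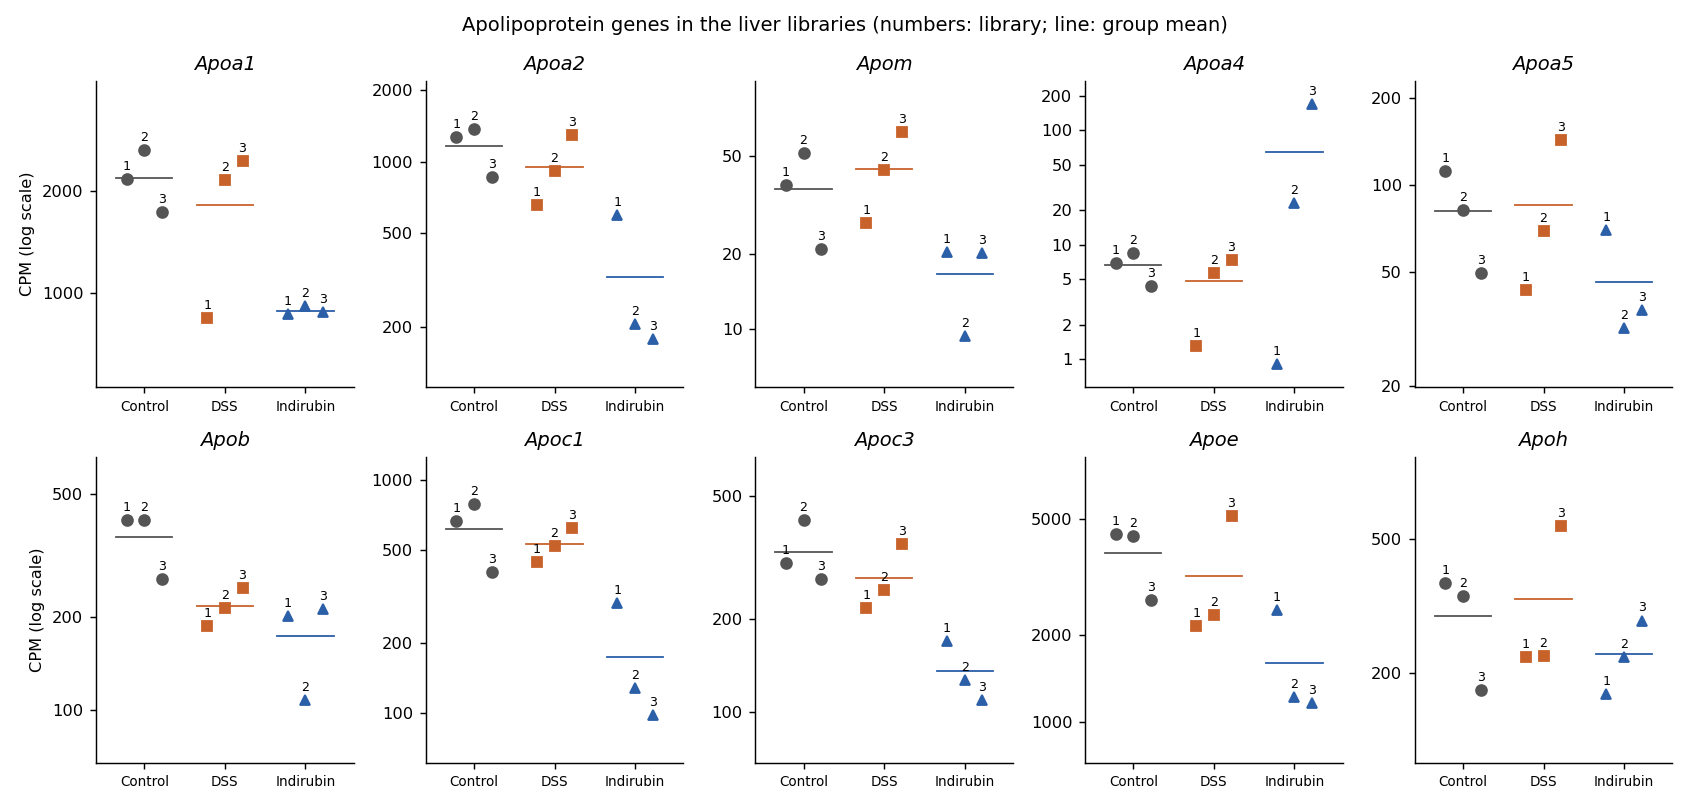
Each panel gives 1 gene in CPM (TMM scaling over 9 libraries) on a log axis of its own. Points are libraries with their numbers, and lines are group means. The lowest library is an indirubin one in each panel but that of Apoa1, Indirubin-1 lies nearest to the DSS libraries for Apoa2, Apoc1 and Apoc3, and Apoa4 spreads from 0.918 to 168 CPM within the Indirubin group.

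Among the genes of high-density lipoprotein proteins, Apoa1 stood at 2165, 2639 and 1733 CPM in Control, 846, 2154 and 2456 CPM in DSS, and 867, 919 and 881 CPM in Indirubin. The 3 indirubin values lay close together and below every Control value, while DSS-1 lay at the same level. Its log2 fold change against DSS was -1.03 (SE 0.53, adjusted p = 0.729 by edgeR). Apoa2 was 1264, 1368 and 859 CPM in Control, 655, 911 and 1289 CPM in DSS, and 595, 205 and 179 CPM in Indirubin, with no overlap between Indirubin and DSS and a log2 fold change of -1.54 (SE 0.57, adjusted p = 0.529). Without Indirubin-1 it was -2.41 (adjusted p = 0.031). The gap between Indirubin-1 and the other two libraries of its group was thus larger than the gap between Indirubin-1 and DSS-1. Apom, which carries sphingosine-1-phosphate on these particles, was 26.8, 43.8 and 62.3 CPM in DSS and 20.4, 9.34 and 20.3 CPM in Indirubin, a log2 fold change of -1.41 (SE 0.46, adjusted p = 0.473). Its Control values of 38.1, 51.3 and 20.9 CPM ran down to the top of the Indirubin range.

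Among the genes that set lipolysis and clearance of triglyceride-rich particles, Apoc1 and Apoc3 were lower in every indirubin library than in any DSS library. Apoc1, an inhibitor of lipase and of receptor uptake, was 665, 788 and 404 CPM in Control, 445, 523 and 626 CPM in DSS, and 297, 128 and 98.1 CPM in Indirubin. Its log2 fold change against DSS was -1.61 (SE 0.51, adjusted p = 0.456), or -2.33 without Indirubin-1 (adjusted p = 0.0175). Apoc3, which slows lipolysis and remnant uptake, was 216, 248 and 350 CPM in DSS and 169, 127 and 109 CPM in Indirubin, a log2 fold change of -1.005 (SE 0.42, adjusted p = 0.604). Apoe, the ligand of remnant receptors, was 2136, 2337 and 5101 CPM in DSS and 2427, 1218 and 1163 CPM in Indirubin, where Indirubin-1 lay among the DSS values. Its log2 fold change of -0.99 (SE 0.59, adjusted p = 0.793) was -0.49 without DSS-3 and -1.52 without Indirubin-1. Macrophages also make Apoe, and their 19 markers summed to 149 to 262 CPM in Control, 188 to 228 CPM in DSS and 234 to 351 CPM in Indirubin. Of 15 tested, 11 were higher in Indirubin than in DSS (13 of 17 without Indirubin-1). The defining markers Adgre1 (log2 fold change -0.42, SE 0.51) and Clec4f (-0.28, SE 0.41) were among the 4 lower. The part of macrophage RNA in the Apoe value was not tested. Apoa5, which promotes lipolysis by lipoprotein lipase, was 43.1, 69.1 and 144 CPM in DSS and 69.8, 31.8 and 36.9 CPM in Indirubin, and the groups overlapped (log2 fold change -0.89, SE 0.50, adjusted p = 0.77). The fold change of Apoa5 was -0.29 without DSS-3 and -1.42 without Indirubin-1.

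Apob and Apoh had the smallest fold changes. Apob was 187, 213 and 248 CPM in DSS and 201, 108 and 211 CPM in Indirubin, and its log2 fold change of -0.32 was smaller than its standard error of 0.42 and came to -0.07 without Indirubin-2. Apoh, or beta-2-glycoprotein I, a plasma protein that binds phospholipid, was 223, 225 and 547 CPM in DSS and 174, 223 and 286 CPM in Indirubin. Its log2 fold change of -0.54 (SE 0.48) came to 0.01 when DSS-3 was left out. Reads were counted per gene, and Apoh overlaps Prkca and Gm11656, which held 72 and 10 counts summed over the 9 libraries, beside 731 to 5982 counts of Apoh in each library. Apoa4 overlaps Gm47528 and Gm10680 and Apoa5 overlaps Gm47544, each with 0 counts. How reads in overlaps were assigned is not stated.

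Apoa4 was read library by library. It had 36, 48 and 18 counts in Control, 11, 32 and 81 in DSS, and 5, 284 and 1943 in Indirubin, that is 7.004, 8.46 and 4.38 CPM, then 1.30, 5.67 and 7.40 CPM, then 0.918, 23.3 and 168 CPM. Indirubin-1 was the lowest of the 9 libraries, and Indirubin-2 and Indirubin-3 were the highest. The fitted log2 fold change against DSS was 3.73 (SE 1.21, unadjusted p = 0.00921, adjusted p = 0.473 by edgeR), and the groups overlapped. It was 4.21 without Indirubin-1 (adjusted p = 0.0232), 4.13 without Indirubin-2 and 1.35 without Indirubin-3, and with Indirubin-1 as the lone indirubin library it was -2.36 (SE 1.45). The value of the group therefore rested on Indirubin-3. Intestinal epithelium markers were summed to 45.2 CPM in Indirubin-3 and to 0.974 to 12.0 CPM in the other 8 libraries, with 13 of the 20 markers detected there and 8 in Indirubin-2. Of the sum in Indirubin-3, Reg3b gave 22.8, Lgals4 8.73 and Reg3g 4.41 CPM, and Reg3b and Reg3g are also made by injured pancreas, whose acinar transcripts Indirubin-2 and Indirubin-3 held. Of the defining markers, Fabp2 had 20 counts in Indirubin-3 (0 to 65 elsewhere), and Vil1 had 3 and Cdx2 2 (both 0 elsewhere). Among the other listed markers, Sis had 12 and Cdh17 7 in Indirubin-3 and 0 elsewhere. Slc15a1 had 13 there and 9 in Indirubin-1, Guca2a had 12 in Indirubin-1 alone, and Lct, Muc2 and Cdx1 had 0 in each library. Alpi had 9 and 15 counts and Tff3 25 and 22 in Indirubin-2 and Indirubin-3, and both had 0 in the other 7 libraries. Apoa4 had 284 and 1943 counts there, and the part of gut RNA in the Apoa4 value was not tested.

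Without Indirubin-1, edgeR called 3 of the 10 members, Apoa2 and Apoc1 as lower and Apoa4 as higher, in a fit that called 1.24% of 10817 genes. Indirubin-1 alone against DSS gave 10 of 10 members lower with a median of -0.76, and 0 at an unadjusted p under 0.05 against 3.75% of all genes. Measured from the DSS mean on the log2 scale, the median of the 9 members other than Apoa4 was -0.65 in Indirubin-1, -1.25 in Indirubin-2 and -1.04 in Indirubin-3. Within the DSS group the same measure was -0.46, -0.01 and 0.58. Indirubin-1 had 6 of the 10 genes below every DSS library, Indirubin-2 had 8 and Indirubin-3 had 6, where 22%, 17.7% and 20.9% of all 9117 genes lay below every DSS library. Scaling factors for these shares came from all genes, and those for the member counts from the genes past the low-count filter.

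**Figure D3:**
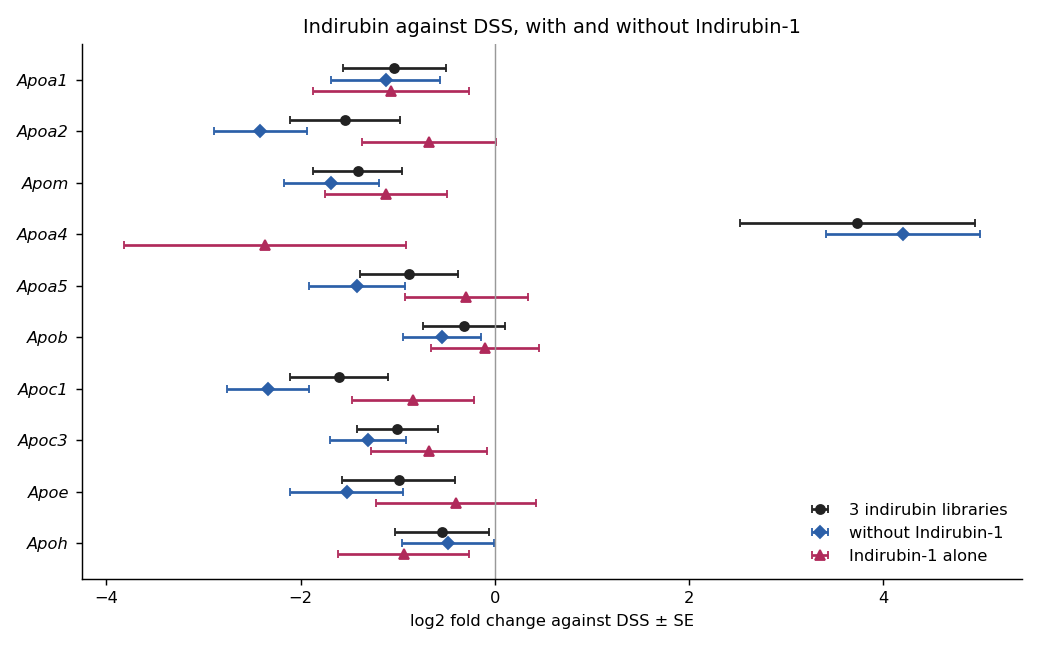
Log2 fold changes of Indirubin against DSS with their standard errors, from all 3 indirubin libraries, without Indirubin-1, and with Indirubin-1 as the only indirubin library (its spread is then taken from the other libraries). Apoa4 turns from 4.21 without Indirubin-1 to -2.36 with it alone, while the other 9 genes stay at or below 0.

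Relative to Alb within each library, 9 of the 10 members were lower in Indirubin than in DSS, with a median log2 difference of -0.56. For 5 of them the groups did not overlap (Apoa2, Apoc1, Apoc3, Apoe and Apom), against 2.39% of all genes lower on this measure, and the largest differences among the lower members were -1.39 for Apoc1 and -1.34 for Apoa2. Apoa4 stood at 2.38 on this measure, with overlapping groups. Apob had nearly the same mean log2 ratio in both groups and Apoh differed by -0.07. Alb itself had a log2 fold change of -0.41 (SE 0.61), and of the 10 hepatocyte markers 7 were lower with a median of -0.46, so the members' median of -0.998 lay below that of the hepatocyte list. Without Indirubin-1, 6 of the 10 hepatocyte markers were lower, with a median of -0.64.

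The makeup of the apolipoprotein transcript pool, taken per kilobase of gene length so that genes can be set beside each other, had Apoa2 or Apoa1 in first place in 8 libraries and Apoe in Indirubin-1. In Control, Apoa2 came first with 30.3% ± 0.417 of the pool (SD, n = 3), followed by Apoa1 (24.9% ± 2.11) and Apoe (24.8% ± 1.79), whose order changed between the 3 libraries. Apoc1 held 11.5% ± 1.01, Apoc3 4.61% ± 0.636 and Apoh 2.54% ± 0.431, and these 3 kept ranks 4, 5 and 6 in each Control and DSS library and in Indirubin-1. Apom, Apoa5 and Apob were each under 1%. Apob is a long transcript of 13934 bases, so its place in each library is lower per length than by count. Apoa2 held 28.4% to 31.2% in the Control and DSS libraries and Indirubin-1, and 17.6% and 15.5% in Indirubin-2 and Indirubin-3. Apoa1 came first there with 34.2% and 33.1%, and the ratio of Apoa2 to Apoa1 was 0.514 and 0.467 there against 0.973 to 1.78 elsewhere. Apoh held 6.42% and 8.35% there against 2.14% to 4.06% elsewhere, and Apoc1 7.93% and 6.13% against 9.97% to 15.3%. Apoa4 was last in the other 7 libraries, at 0.0137% to 0.0547% of the pool, and number 7 of the 10 in Indirubin-2 and Indirubin-3, with 0.589% and 4.30%. Ranked among all nuclear genes per length, Apoa4 was number 88 in Indirubin-3 and 480 in Indirubin-2, and between 1293 and 7737 in the other libraries, while Apoa2 was number 6 to 11 in those libraries and 24 and 32 in Indirubin-2 and Indirubin-3.

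**Figure D4:**
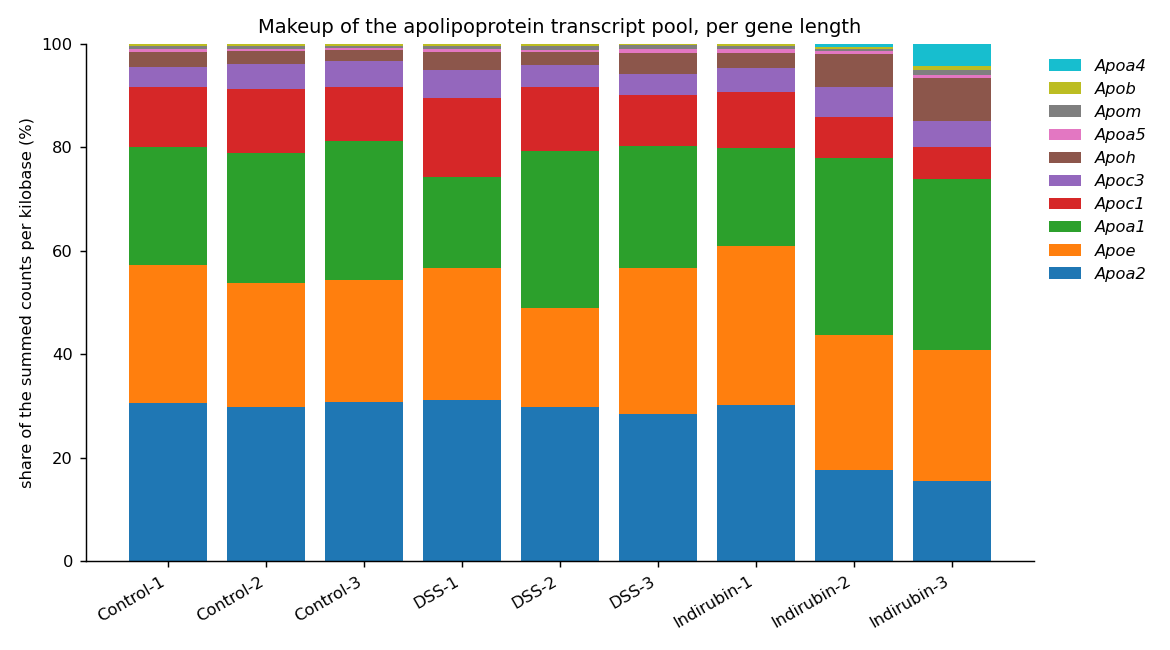
Stacked bars give, for each of the 9 libraries, each gene's percentage of the summed counts per kilobase of the 10 genes. The Apoa2 block shrinks to 17.6% and 15.5% in Indirubin-2 and Indirubin-3, and the Apoa4 block becomes visible at 0.589% and 4.30%.

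The comparison of DSS with Control asks what colitis did to the same genes in the liver, and 0 of the 10 passed the test. Of the 10, 7 were lower in DSS with a median log2 fold change of -0.23 (0.01 over all 7482 genes tested), but with scaling by library size alone 1 of 10 was lower and the median was 0.48 (0.70 over all genes), and relative to Alb 2 of 10 were lower. By edgeR 0 of the 10 were called against 0.708% of all genes, by DESeq2 0 of the 10 against 1.75%, and 1 of the 10 stood at an unadjusted p under 0.05 against 7.52% of all genes. That gene was Apob, at 411, 412 and 265 CPM in Control and 187, 213 and 248 CPM in DSS (log2 fold change -0.71, SE 0.30, adjusted p = 0.592). It was the 1 member whose groups did not overlap, lower in DSS, where 8.21% of all genes were apart in that direction and 7.91% in the other. The remaining fold changes lay between -0.44 (Apoa4) and 0.31 (Apom), each smaller than its standard error. Without DSS-3, Apoe moved from -0.23 to -0.69 (SE 0.34), Apoa2 from -0.26 to -0.50 (SE 0.32) and Apoc3 from -0.25 to -0.43 (SE 0.31). Apoe, for example, was 4433, 4362 and 2633 CPM in Control, so that its 3 DSS values reached both below and above that range.

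Against Control, in a comparison that shares the indirubin libraries with the one above, 9 of the 10 genes were lower in Indirubin, or 7 of 10 with scaling by library size alone, where Apoa5 stood at 0.0064 and Apoh at 0.67. The median was -1.17 (0.13 over all 8059 genes tested). Scaling by library size alone moved the members' median to -0.27 and that of all genes to 1.11. By edgeR 0 of the 10 passed an adjusted p of 0.05 against 0.236% of all genes, while 8 stood at an unadjusted p under 0.05 against 13.8% of all genes. The groups did not overlap for 7 members, all lower in Indirubin, against 9.07% of all genes lower and 12.7% higher. DESeq2 called 4 members, Apoa1, Apoa2, Apoc1 and Apoc3, and 3.92% of all genes. Without Indirubin-1 edgeR called 6 (Apoa1, Apoa2, Apoc1, Apoc3 and Apoe as lower, Apoa4 as higher) and 4.78% of all genes.

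The sizes against Control were a log2 fold change of -1.81 for both Apoa2 (SE 0.52, adjusted p = 0.151) and Apoc1 (SE 0.50, adjusted p = 0.137). Apoa1 and Apoc3 both came to -1.26, with standard errors of 0.41 and 0.38. Apoe was at -1.23 (SE 0.48), Apom at -1.12 (SE 0.44) and Apob at -1.04 (SE 0.41). Apoa5 at -0.80 (SE 0.43) and Apoh at -0.34 (SE 0.41) had overlapping groups, and Apoa5 came to -1.35 without Indirubin-1. Apoh ran from -0.64 without Control-3 to -0.18 without Control-1. Apoa4 was at 3.30 (SE 1.13, adjusted p = 0.211), at 0.94 without Indirubin-3, and at -2.83 with Indirubin-1 as the lone indirubin library.

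**Figure D5:**
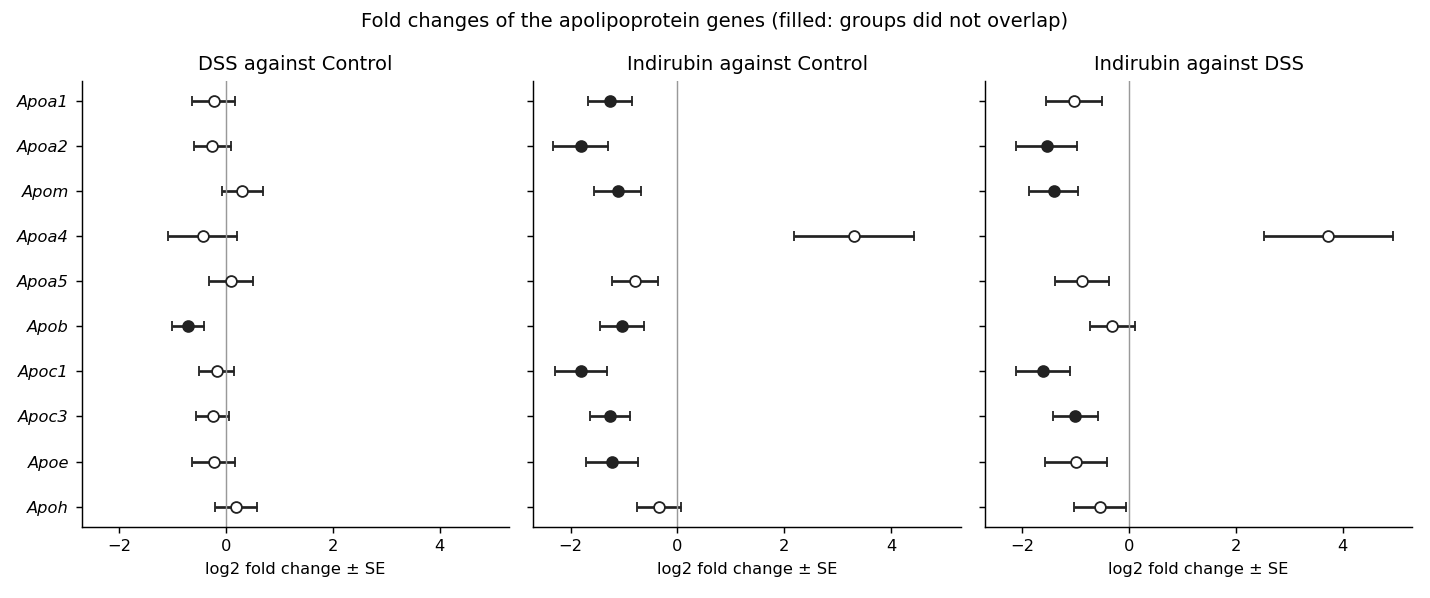
Log2 fold changes with standard errors for the 10 genes in the 3 comparisons, on one axis. Filled points mark genes whose groups did not overlap: 1 in DSS against Control, 7 in Indirubin against Control and 4 in Indirubin against DSS, none of them Apoa4.

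Of other apolipoproteins and proteins of high-density lipoproteins, 12 of 13 tested genes were lower in Indirubin than in DSS with a median of -0.93, beside 3938 lower of all 9117 genes. Without Indirubin-1 it was 11 of 14 with a median of -0.84 and 0 called, against 1.24% of all genes. At an unadjusted p under 0.05 stood 5 of the 13, against 7.68% of all genes. Apoc4, the neighbour of Apoc1 and Apoe, was 69.9, 101 and 158 CPM in DSS and 40.8, 36.9 and 26.2 CPM in Indirubin (log2 fold change -1.66, SE 0.43, adjusted p = 0.433). Apon was at -1.47 (SE 0.45) and Apof, the lipid transfer inhibitor, at -1.23 (SE 0.43), both without overlap, and Apol9b was the 1 gene on the other side, at 0.05. Apoc2, the cofactor of lipoprotein lipase, was listed at 0 counts in each of the 9 libraries, as was Apoc2l, which overlaps it, so its level could not be read from this table. In DSS against Control, edgeR called 4 of these 13 genes, against 0.708% of all genes: the acute-phase apolipoproteins Saa1 (log2 fold change 8.25, adjusted p = 0.00142) and Saa2 (8.80, adjusted p = 0.00216) rose, and Apol9b (-2.25, adjusted p = 0.0235) and Apol9a (-2.25, adjusted p = 0.033) fell. Reads of the near-identical pairs Saa1 with Saa2 and Apol9a with Apol9b may have been split between the copies.

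Receptors, lipases and clearance genes were lower in Indirubin than in DSS for 11 of 16 tested, with a median of -0.45, and 5 stood at an unadjusted p under 0.05 (4 lower and 1 higher), against 7.68% of all genes. Lipc, the hepatic lipase, was 22.9, 51.0 and 75.2 CPM in DSS and 22.2, 2.13 and 4.92 CPM in Indirubin (log2 fold change -2.37, SE 0.75, adjusted p = 0.456). Angptl8, an insulin-responsive inhibitor of lipoprotein lipase, was 207, 100.5 and 58.4 CPM in DSS and 3.86, 16.0 and 2.51 CPM in Indirubin (-4.02, SE 0.74, adjusted p = 0.253), with 33.5, 28.7 and 33.1 CPM in Control between them. Sdc1, a proteoglycan that takes up remnants, was at -2.16 (SE 0.59) and Cd36, a fatty acid transporter, at 1.82 (SE 0.59). Without Indirubin-1 the list had 12 of 17 lower with a median of -0.53, and edgeR called 3 (1.24% of all genes), among them Lipc (-3.92, adjusted p = 0.00778) and Angptl8 (-3.82, adjusted p = 0.0377).

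Of the genes of particle assembly, 9 of 15 were lower than in DSS, with a median of -0.31. The 1 gene at an unadjusted p under 0.05, a share near the 7.68% of all genes, was Surf4, the cargo receptor for lipoprotein export (-1.23, SE 0.39). Mttp, which loads lipid onto Apob, was 23.5, 19.3 and 40.0 CPM in DSS and 17.1, 14.7 and 20.5 CPM in Indirubin (-0.66, SE 0.41, adjusted p = 0.813). Of the transcription factors, 10 were higher and 9 lower with a median of 0.02, and 2 of the 19 stood at an unadjusted p under 0.05, again near the share of all genes, both lower: Nr0b2 (-1.46, SE 0.63) and Srebf1, the lipogenic factor (-1.53, SE 0.67). Hnf4a, the hepatocyte nuclear receptor that binds several apolipoprotein promoters, was 67.3, 67.9 and 76.0 CPM in DSS and 63.2, 79.7 and 71.2 CPM in Indirubin (0.02, SE 0.36). Creb3l3, a fasting-responsive factor of Apoa4, was 13.8, 3.90 and 11.5 CPM in DSS and 4.04, 3.77 and 11.1 CPM in Indirubin (-0.62, SE 0.60). Fasting and lipid droplet genes had 7 of 13 higher, a median of 0.03 and 0 at an unadjusted p under 0.05. No gene of these 3 lists passed an adjusted p of 0.05. Without Indirubin-1 the medians were -0.75, -0.08 and -0.29, with 0 genes of assembly and 0 transcription factors called. In the fasting and lipid droplet list edgeR then called 3 of 13, against 1.24% of all genes in that fit. Each was lower: Plin2, a lipid droplet coat protein (-2.12, adjusted p = 0.0231), Fabp1, a fatty acid binding protein (-2.87, adjusted p = 0.0326), and Cyp4a10, a fatty acid hydroxylase named after its values were seen. Plin2 stood at 35.8, 29.2 and 37.0 CPM in DSS and at 34.9, 7.29 and 9.50 CPM in Indirubin, so Indirubin-1 lay among the DSS values. Cyp4a10 had 47 counts in Indirubin-1, 0 and 2 in Indirubin-2 and Indirubin-3, and 39 to 97 in DSS.

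Over the 9 libraries and 9712 genes, the profiles most like that of Apoa4 by Pearson correlation of log2 CPM were those of Galnt1 (r = 0.91), Epb41 (0.90), Vps36 (0.90), Cp (0.89) and Steap4 (0.89). The libraries differ in depth and in their acinar content, and Indirubin-2 and Indirubin-3 are high in each of these genes. Cp, the copper carrier ceruloplasmin, had 362 to 2964 counts in the Control and DSS libraries, 651 in Indirubin-1, and 6410 and 11864 in Indirubin-2 and Indirubin-3. Ranked by Spearman's rho, or without Indirubin-3, 1 of these 5 was still among the first 5, namely Vps36.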

How the data were processed

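The input to each library was 400 ng of liver RNA from a column kit, and reads came from a DNBSEQ sequencer. The authors deposited whole-number counts per gene, without normalization, and FPKM values made from those counts, together with a gene length. The genome build is GRCm39 per the submitters' processing notes. The aligner and the counting program are not given in the sources used here. The group means that the authors deposited, a signal on a scale the sources do not name, the log2 fold changes, p-values and adjusted p-values of the authors' own comparisons in the same table, and the authors' lists of genes detected in a single group were not used. The deposited FPKM values were not used either.

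Counts were tested here with edgeR 4.0.16 in R 4.3.3 on the 6 libraries of each comparison: TMM normalization, filterByExpr at its defaults (minimum count 10, minimum total 15), glmQLFit with glmQLFTest, p-values corrected by Benjamini-Hochberg over all genes tested, and a call at an adjusted p under 0.05. A standard error is the log2 fold change over the square root of the F statistic. CPM values shown use TMM factors over 9 libraries, and correlations used log2 CPM with a prior count of 2. Alternatives were DESeq2 1.42.0, other scaling, no filter, all 9 libraries in one fit, a replicate block and leaving out each library. Figures were drawn with matplotlib.

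With 3 libraries a group an exact two-sided permutation test cannot go below p = 0.10, so none was run on single genes. Replicate numbers do not pair the libraries: deviations from the group means of same-numbered libraries correlated at -0.025 to 0.024. The labels give no batch. The 10 members and the gene lists were chosen with earlier results of these data known, and nothing is supported by that choice. Intestinal markers other than Fabp2, Vil1 and Cdx2 were named after their values were seen. Other named genes are the 10 members, up to 3 genes each way per pathway list with the smallest unadjusted p, the 5 profiles most like Apoa4, and a fixed set of defining markers and pathway genes. Of the pathway genes this names, values are given mainly for those at an unadjusted p under 0.05 in Indirubin against DSS, and for DSS against Control those called. The others stand only in the counts of their list, and one further gene is not reported here.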

Additional observations from a re-analysis of the deposited data

How the results depend on the processing

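Leaving out 1 library at a time, the number of members called ran from 0 to 3 in Indirubin against DSS and from 0 to 6 in Indirubin against Control, both highest without Indirubin-1 (0% to 1.24% and 0.01% to 4.78% of all genes), and the number at an unadjusted p under 0.05 ran from 2 to 7, from 0 to 1 in DSS against Control, and from 4 to 9 in Indirubin against Control. Of all genes, 4.89% to 10.5%, 4.88% to 7.71% and 9.58% to 17.5% stood at that p in these fits. The median of Indirubin against DSS ran from -1.36 to -0.62. In the same setting the log2 fold change of Apoh in Indirubin against DSS ran from -0.86 to 0.012 (without DSS-3), and in DSS against Control those of Apoa1 from -0.46 to 0.10, Apoa4 from -0.87 to 0.0041, Apoa5 from -0.46 to 0.40, Apoc1 from -0.45 to 0.0018, Apoh from -0.32 to 0.40 and Apom from -0.0091 to 0.59.

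Scaling by library size alone gave 3 members at an unadjusted p under 0.05 in Indirubin against DSS (5.59% of all genes). In DSS against Control it gave 0 at that threshold (12.2% of all genes), 1 lower, a median of 0.48, and Apoa1 at 0.47, Apoa2 at 0.46, Apoa4 at 0.28, Apoc1 at 0.50, Apoc3 at 0.46 and Apoe at 0.54. In Indirubin against Control it gave 1 called (Apoa4; 3.3% of all genes), 2 at an unadjusted p under 0.05 (27.6%), a median of -0.27, and Apoa5 at 0.0064 and Apoh at 0.67. Under it the median of all genes tested moved to 0.43, 0.70 and 1.11 in the 3 comparisons, from 0.15, 0.01 and 0.13. Without the filter on low counts 1 member was called in Indirubin against DSS (Apoa4; 0.677% of all genes), 8 stood at an unadjusted p under 0.05 (6.23%), and 3 were called in Indirubin against Control (Apoa2, Apoa4 and Apoc1; 1.66%). DESeq2 called 4 in Indirubin against Control (3.92% of all genes). All 9 libraries in one fit gave 0 members at an unadjusted p under 0.05 in DSS against Control (6.87% of all genes). The causes of these shifts were not tested.

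With the replicate block, 0 members were called in any comparison (0.0329%, 0.401% and 0.608% of all genes, in the order above) and 0 stood at an unadjusted p under 0.05 in DSS against Control (6.24%), and Apoa4 came to 2.32 in Indirubin against DSS and to 1.56 in Indirubin against Control, where it no longer stood at an unadjusted p under 0.05. Alternatives chosen after seeing the data were Indirubin-1 as the lone indirubin library (Apoa4 at -2.36 against DSS and -2.83 against Control, with 0 members at an unadjusted p under 0.05 against DSS and 6 against Control, where 3.75% and 7.83% of all genes stood there), the 9 members other than Apoa4, the gene lists without Indirubin-1, and the ratio to Alb, which gave medians of -0.56 in Indirubin against DSS and -0.36 in Indirubin against Control, and 2 members lower with a median of 0.17 in DSS against Control. Of the 5 profiles most like Apoa4, 1 was kept under Spearman's rho and 1 without Indirubin-3. In all, 134 of 140 member results in Indirubin against DSS kept their direction and side of the threshold, 116 of 130 in DSS against Control and 123 of 140 in Indirubin against Control. With 569044 to 2132208 nuclear counts a library, low values such as 5 counts of Apoa4 in Indirubin-1 carry large counting error.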

Other observations

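The acute-phase members of the wider apolipoprotein family set Indirubin-1 beside the Control libraries and the other two indirubin libraries beside DSS. Saa1 stood at 9.53, 9.69 and 2.92 CPM in Control, 271, 1941 and 4562 CPM in DSS, and 9.73, 1850 and 2528 CPM in Indirubin. Saa4, the constitutive member, stood at 20.04, 27.0 and 13.9 CPM, then 21.8, 43.8 and 57.1 CPM, then 8.26, 52.4 and 50.4 CPM. Apol9b did not follow them: it was 23.7, 55.1 and 56.0 CPM in Control, 12.0, 6.73 and 8.87 CPM in DSS, and 11.9, 11.1 and 5.53 CPM in Indirubin, so Indirubin-1 lay with the DSS libraries there.

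Ttr, a retinol carrier and hepatocyte marker, was 818, 1110 and 618 CPM in Control, 559, 605 and 951 CPM in DSS, and 480, 164 and 199 CPM in Indirubin. Trf, the iron carrier transferrin, a hepatocyte marker named after its values were seen, was 2673, 4205 and 8075 CPM in DSS and 2522, 6759 and 7290 CPM in Indirubin, so the groups overlapped. Relative to Alb it stood at 0.215, 0.235 and 0.339 counts per Alb count in Control, 0.408, 0.742 and 0.690 in DSS, and 0.324, 1.48 and 1.29 in Indirubin. On that ratio Indirubin-2 and Indirubin-3 lay above the other 7 libraries.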
